A study of Mus musculus with 2 samples.

Results

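The T-cell outlines of mouse dorsal skin were taken as the segmented cell outlines that held at least 1 transcript of Cd3d and at least 1 of Rac2. They also held at most 1 transcript in all of the macrophage genes Ms4a7, Pf4, F13a1 and Folr2, and at least 20 gene transcripts in total. An outline was called epidermal where the keratinocyte genes Trim29, Dsc3, Serpinb5 and S100a14 made up at least 8% of its transcripts, and dermal otherwise. By this rule 681 of 59588 outlines were T-cell outlines, 45 epidermal and 23 dermal ones in mock and 402 and 211 in SspA+HDM. An epidermal outline here is one with epithelial RNA, which takes in hair follicles as well as the surface epithelium.

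Skin of C57BL/6 mice was imaged by Xenium In Situ, a method that decodes single transcripts in place on a tissue section, with a panel of 379 genes. The back skin of all mice had been shaved and depilated before the agents were put on the skin surface. One group, called mock, received PBS, and the other received SspA together with HDM, and sections of 5 µm from paraffin-embedded tissue were taken at day 7. Each treatment is represented by 1 sample, so the differences between treatments have no replicate check and no test was run. Intervals are exact 95% intervals and cover counting error only. Each section held 2 strips of skin, and whether they came from separate animals is not given in the labels, so the strips are shown side by side and are not counted as replicates.

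As background, CD3 delta, the product of Cd3d, is a chain of the signalling complex that every T-cell receptor needs at the cell surface, and Rac2 is a small GTPase of blood-derived cells that drives the actin cytoskeleton. Cd8a encodes a chain of the CD8 coreceptor, which binds MHC class I, and Ctla4 an inhibitory receptor of activated and regulatory T cells. Mouse skin holds resident T cells in the epidermis, most of them dendritic gamma-delta T cells, and a mixed population in the dermis to which cells from the blood are added in inflammation.

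The panel bears only in part on the name T cell. Of 38 genes on the T-cell list, 4 were measured (Cd3d, Rac2, Cd8a and Ctla4), and Cd3d and Rac2 chose the outlines. Trdc, Cd4 and Foxp3 were on that list and not on the panel, so gamma-delta, CD4 and regulatory identity were not measured. None of the 6 NK-cell genes, 7 B-cell genes or 17 genes of T-cell homing and residence that were listed was on the panel. Klra8, which encodes a Ly49-family receptor known from NK cells, was on the panel but not on a list, and is named after its values were seen. It was present in 2 of 45 epidermal and 1 of 23 dermal members of mock, and in 5 of 402 epidermal and 9 of 211 dermal members of SspA+HDM. In the SspA+HDM dermis its level was 5.28-fold (2.18 to 13) that of neighbouring outlines, with 13 transcripts in members, of which 5 lay in 1 outline. Cd8a, which the rule did not use, followed the joint count of both genes in SspA+HDM. It was found in 18.3% of T-cell outlines, in 7.95% of outlines with Cd3d but no Rac2, in 3.26% of those with Rac2 but no Cd3d, and in 0.599% of those with neither. In mock the same shares were 2.94%, 1.40%, 1.09% and 0.202%, with Cd8a in 2 of 68 members. By compartment mock did not keep the order. Epidermal outlines with Rac2 alone held Cd8a in 4 of 127 cases (3.15%, against 2.22% of members). Dermal outlines with Cd3d alone held it in 2 of 38 (5.26%, against 4.35%). Skeletal muscle outlines, which should lack Cd8a, held none in 605 outlines of SspA+HDM at a median of 316 transcripts. A floor of 3 counts allows a share of up to 0.496% there, and the exact upper limit is 0.608%.

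Most members rest on few transcripts of the genes that chose them. Exactly 1 Cd3d transcript was present in 30 of 45 epidermal and 18 of 23 dermal T-cell outlines of mock, and in 270 of 402 and 137 of 211 of SspA+HDM. The highest Cd3d count was 3 in mock and 6 in SspA+HDM. Exactly 1 macrophage-gene transcript was present in 8 epidermal and 6 dermal members of mock and in 26 and 46 of SspA+HDM, and 2 further outlines of mock and 42 of SspA+HDM missed the rule with exactly 2. At the compartment limit, 1 mock and 9 SspA+HDM members had 8% to 9% of keratinocyte-gene transcripts, and 0 and 15 had 7% to 8%. These counts describe the rule and support nothing further.

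Depth was moderate. Epidermal members held a median of 129 transcripts in mock and 134.5 in SspA+HDM, against 126 and 156 in the other epidermal outlines. Dermal members held 64 and 69, against 95 and 100. The T-cell outlines of mock held 6225 transcripts in the epidermis and 1711 in the dermis, so the dermal group of mock is the least precise of the 4. Those of SspA+HDM held 63776 and 17401. No outline name was shared between sections, and the highest control feature reached 34 transcripts in mock and 127 in SspA+HDM.

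T-cell outlines made up a larger share of the SspA+HDM section in both compartments. Mock had 68 among 15306 outlines, or 0.444% (95% interval 0.345 to 0.563), and SspA+HDM had 613 among 44282, or 1.38% (1.28 to 1.5), a ratio of 3.12 (2.42 to 4.06). In the epidermis SspA+HDM had 1.99% and mock 0.685%, which is a ratio of 2.90 (2.13 to 4.05). In the dermis the shares were 0.876% and 0.263%, a ratio of 3.33 (2.16 to 5.37). The epidermal share was 0.723% and 0.653% in the strips of mock and 1.89% and 2.08% in those of SspA+HDM. The dermal share was 0.194% and 0.325% in mock and 0.759% and 0.973% in SspA+HDM. Every strip of SspA+HDM lay above both strips of mock in each compartment.

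**Figure D1:**
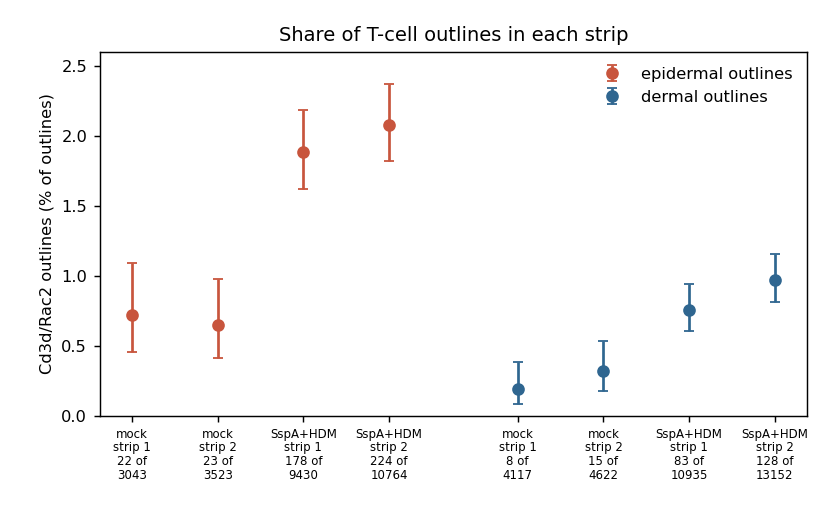
Share of outlines that are T-cell outlines (y axis, %) in each strip of the mock and SspA+HDM sections, for epidermal (red) and dermal (blue) outlines. Points are shares, bars are exact 95% intervals for counting error, and the interval of every SspA+HDM strip lies above those of the mock strips of the same compartment.

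Part of this ratio rests on Rac2. Rac2 was present in 34.1% of Cd3d-positive outlines of mock and in 62.5% of those of SspA+HDM. It was also more frequent among outlines without Cd3d, at 4.88% and 9.81%. With Cd3d alone as the rule, an alternative added after the data had been seen, the share ratio was 1.68 (1.44 to 1.97) over all outlines, 1.43 (1.19 to 1.72) in the epidermis and 2.24 (1.68 to 3.05) in the dermis.

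Counted along the skin, the gap was wider. There were 4.35 and 5.41 T-cell outlines per mm in the strips of mock and 34.0 and 45.8 in those of SspA+HDM, a ratio of 8.17 (6.35 to 10.7) for the sections. Epidermal members numbered 3.23 per mm in mock and 26.2 in SspA+HDM, and dermal members 1.65 and 13.7. All outlines together went from 1100 to 2883 per mm, and outlines with at least 2 macrophage-gene transcripts from 221 to 555. The latter kept close to the same share of outlines, 20.1% and 19.3%. Per area of outlines rather than per length, the ratio for T-cell outlines was 4.65 (3.61 to 6.07).

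T-cell outlines of the SspA+HDM section lay closer together. The median distance from an epidermal member to the nearest other member was 82.0 µm in mock and 18.8 µm in SspA+HDM, and from a dermal member it was 74.3 and 22.8 µm. Another member lay within 30 µm of 7 of 45 epidermal members in mock and of 292 of 402 in SspA+HDM. Of the 200-µm stretches of strip, 13 of 34 and 12 of 35 in mock held no member, against 4 of 38 and 0 of 38 in SspA+HDM, where the fullest stretches held 24 and 22. A higher density shortens these distances by itself, and no arrangement beyond density was tested.

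With the compartments split at 8% of keratinocyte-gene transcripts, dermal T-cell outlines lay near epithelium in both sections. Their median distance to the nearest epidermal outline was 14 µm in mock (quartiles 9.46 and 20.4) and 14.2 µm in SspA+HDM (8.71 and 22.6), against 32.9 and 23.4 µm for the other dermal outlines. Within 20 µm lay 17 of 23 dermal members in mock (73.9%, against 36.0% of other dermal outlines) and 148 of 211 in SspA+HDM (70.1%, against 44.1%). That epithelium takes in follicles. Measured to the outer layer alone, the median distance was 22.9 µm in mock and 64.2 µm in SspA+HDM. For other dermal outlines it was 80.1 and 157 µm. In SspA+HDM, 15 of 211 dermal members had 7% to 8% of keratinocyte-gene transcripts, against 595 of 23876 other dermal outlines. In mock these were 0 of 23 and 193 of 8717. The distances were not recomputed with the compartments split elsewhere.

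Median depth was lower for members than for other outlines of their compartment over both strips. Epidermal members had a median depth of 28.0 µm below the outer edge in mock and 47.9 µm in SspA+HDM, against 37.5 and 89.5 µm for other epidermal outlines. In mock strip 2 the difference was small, at 39.1 µm against 40.7 µm. Dermal members lay at 59.7 and 101 µm, against 116 and 188 µm. In the outer layer of the epidermis, which lies above the level where dermal outlines begin, 28 of 3549 outlines were T-cell outlines in mock (0.789%, interval 0.525 to 1.14) and 139 of 4390 in SspA+HDM (3.17%, interval 2.67 to 3.73). Among deeper epidermal outlines they were 17 of 3017 (0.563%, 0.329 to 0.901) and 263 of 15805 (1.66%, 1.47 to 1.88). The mock intervals overlap, and those of SspA+HDM do not.

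**Figure D2:**
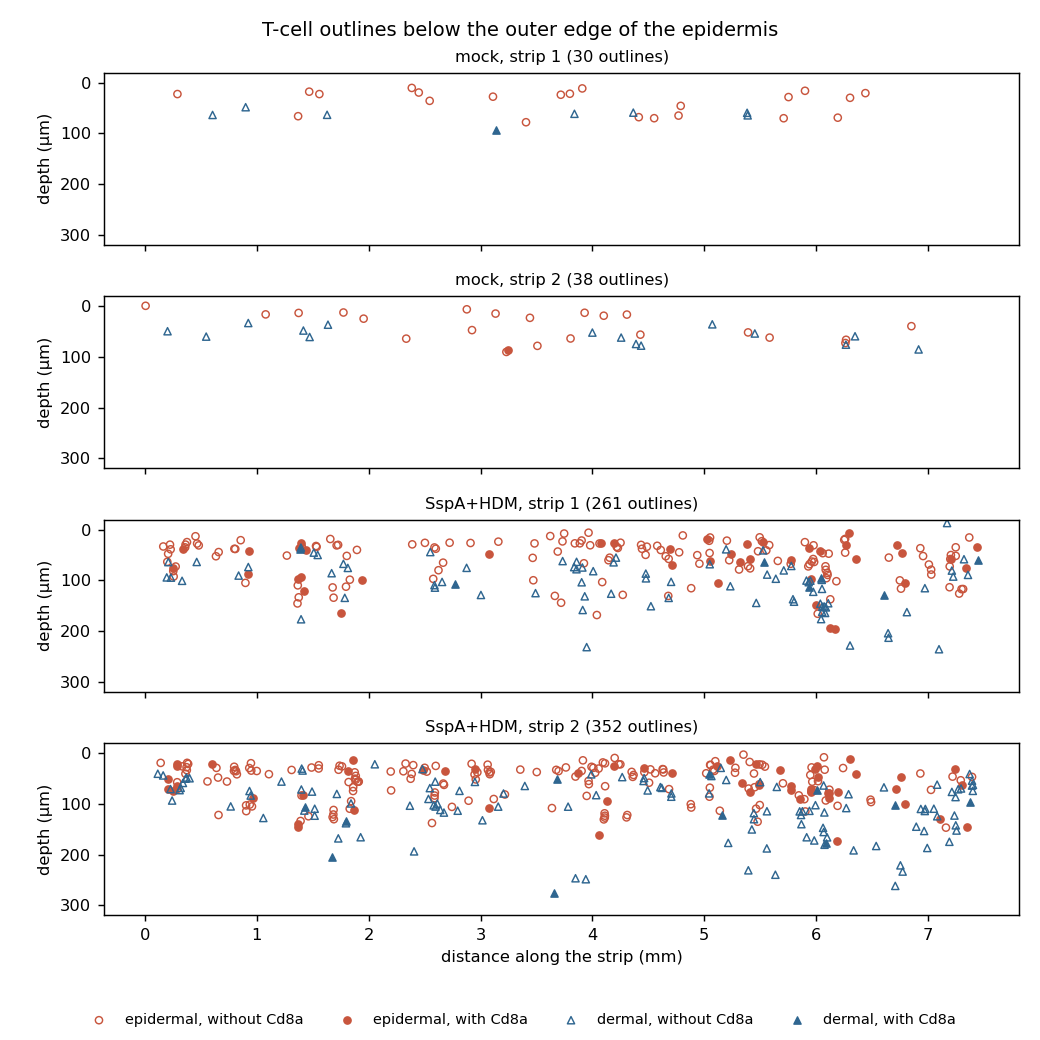
Position of each T-cell outline in the 4 strips, as distance along the strip (x axis, mm) and depth below the outer edge of the epidermis (y axis, µm). Circles are epidermal and triangles dermal outlines, filled where Cd8a was present, and the SspA+HDM strips hold 261 and 352 members against 30 and 38 in mock.

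Distances to Rac2 were measured inside each outline. In epidermal members of SspA+HDM a Cd3d transcript lay a median of 1.95 µm from the nearest Rac2 transcript of its outline and a Cd8a transcript 1.77 µm, against 3.52 µm for the keratinocyte genes of the rule. In epidermal members of mock, Cd3d lay 1.86 µm from Rac2 and the keratinocyte genes 4.10 µm. Over the nucleus lay 65.4% of Cd3d, 64.2% of Rac2 and 76.2% of Cd8a transcripts of epidermal members in SspA+HDM, against 43.7% of all transcripts. In the dermis, Cd8a lay 2.02 µm from Rac2 in SspA+HDM, where the keratinocyte genes lay at 3.57 µm, and the single Cd8a transcript of mock lay at 4.96 µm, where they lay at 5.01 µm. Cd3d, Rac2 and the keratinocyte genes are those of the rule, and only Cd8a is independent of it. Cd8a distances in SspA+HDM come from the 94 epidermal and 18 dermal members that held it, those of keratinocyte genes from all members. Median outline area was 89.0 and 57.1 square µm for epidermal members of mock and SspA+HDM, and 225 and 92.7 for dermal ones. Exactly 1 Rac2 transcript was present in 31 of 45 and 165 of 402 epidermal members. The part of area and Rac2 number in these distances was not tested.

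Cd8a was found in a larger share of epidermal T-cell outlines of SspA+HDM than of mock, and in the dermis the mock share was too imprecise for a direction. In the epidermis, 1 of 45 members of mock held the gene (2 transcripts; 2.22%, interval 0.0562 to 11.8) and 94 of 402 of SspA+HDM did (298 transcripts, at most 14 in one outline; 23.4%, 19.3 to 27.8). In the dermis, 1 of 23 members of mock held it, with 1 transcript (4.35%, 0.110 to 21.9), and 18 of 211 of SspA+HDM did, with 59 (8.53%, 5.13 to 13.1). The dermal share ratio was 1.96 (0.310 to 81.7), and 1.72 with members thinned to 40 transcripts. By strip, the epidermal share in SspA+HDM was 23.0% and 23.7%, and in mock no member of strip 1 and 1 of strip 2 held it.

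As a level, Cd8a in epidermal members was 321 CPM (transcripts scaled to the panel total of the group) in mock and 4673 CPM in SspA+HDM, a ratio of 14.5 whose interval ran from 3.99 to 121 because mock had 2 transcripts. The ratio was 6.93 without mock strip 1 and at least 5.07 without mock strip 2, where mock had 0 transcripts. It was 5.52 with at least 2 Cd3d transcripts in the rule and 33.9 with Cd3d alone. In other epidermal outlines the ratio was 4.83, from 22.4 to 108 CPM. In dermal members it was 5.80 (1.0 to 233), resting on 1 mock transcript, and in other dermal outlines 1.48. The 5 nearest other epidermal outlines of each member held Cd8a in 4.68% of cases in SspA+HDM, so that members stood 14.1-fold (11.3 to 17.6) above their neighbours in CPM. In the dermis the neighbours were at 2.30% and the ratio was 10.1 (6.29 to 16.8).

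The share of members with Cd8a depends on depth as well as on level. Thinned to 40 transcripts each, epidermal members of SspA+HDM held Cd8a in 56 of 397 cases (14.1%), dermal members in 15 of 183 (8.20%) and epidermal members of mock in 0 of 43. In CPM, epidermal members of SspA+HDM stood 1.38-fold (1.04 to 1.85) above dermal ones. That ratio was 2.22 with the compartments split at 5% of keratinocyte-gene transcripts and 0.824 with the split at 12%, so its direction turned with the limit. Per mm of strip, epidermal members with Cd8a numbered 0.0718 in mock and 6.12 in SspA+HDM, and dermal ones 0.0718 and 1.17. Within the epidermis of SspA+HDM, Cd8a was present in 30 of 139 members of the outer layer (21.6%) and in 64 of 263 deeper ones (24.3%), with overlapping intervals.

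**Figure D3:**
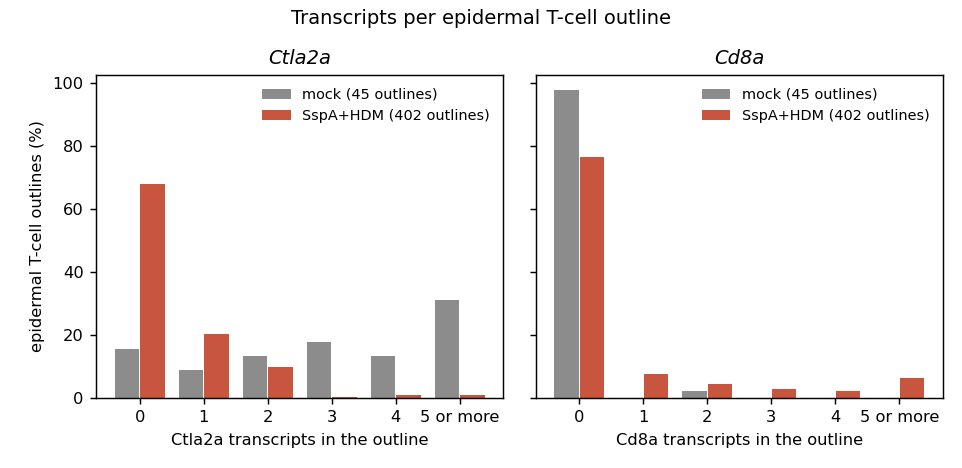
Number of Ctla2a (left) and Cd8a (right) transcripts in each epidermal T-cell outline (x axis) against the share of such outlines (y axis, %) in mock (grey, 45 outlines) and SspA+HDM (red, 402 outlines). In mock 14 outlines held 5 or more Ctla2a transcripts and 1 held Cd8a, and in SspA+HDM 4 held 5 or more of Ctla2a and 94 held Cd8a.

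Ctla4 was found more often in dermal than in epidermal members. In the dermis it was present in 9 of 23 members of mock (21 transcripts, 39.1%) and in 61 of 211 of SspA+HDM (197 transcripts, 28.9%, interval 22.9 to 35.5), against 4.50% and 6.90% of their neighbours. The dermal level was 12273 CPM in mock and 11321 CPM in SspA+HDM, a ratio of 0.922 with an interval from 0.587 to 1.52. In the epidermis it was present in 1 of 45 members of mock and in 41 of 402 of SspA+HDM (10.2%, 7.42 to 13.6). The strips of SspA+HDM had it in 33.7% and 25.8% of dermal members and in 8.43% and 11.6% of epidermal ones, so the compartments did not overlap by strip. Muscle outlines of SspA+HDM held Ctla4 in 0.331% of cases.

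In CPM, epidermal members of SspA+HDM had 0.108 times (0.0820 to 0.141) the Ctla4 level of dermal ones, where other outlines had 0.556 times. Per mm, dermal members with Ctla4 numbered 0.647 in mock and 3.97 in SspA+HDM. Of the 18 dermal members with Cd8a, 4 also held Ctla4. The share of members thinned to 40 transcripts with Ctla4 was 5.54% in the epidermis and 24.6% in the dermis of SspA+HDM. The part of keratinocyte RNA in the totals of epidermal outlines was not tested.

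Ctla2a, which encodes an inhibitor of cathepsin-like cysteine proteases, had the highest ratio over neighbours in epidermal members of mock among the 39 genes compared. It was present in 38 of 45 of them (84.4%, interval 70.5 to 93.5), with 156 transcripts and a level of 25060 CPM, against 16.1% of their neighbours. Members stood 14.8-fold (10.8 to 20.5) above those neighbours. In epidermal members of SspA+HDM it was present in 129 of 402 (32.1%, 27.5 to 36.9), with 196 transcripts and 3073 CPM, 7.76-fold (6.19 to 9.76) above neighbours. Both mock strips (81.8% and 87.0%) lay above both SspA+HDM strips (34.8% and 29.9%).

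The Ctla2a level of epidermal members in SspA+HDM was 0.123 times (0.0989 to 0.152) that of mock, and in other epidermal outlines 0.276 times. Where the gene was present, an outline held 4.11 transcripts on average in mock and 1.52 in SspA+HDM. Thinned to 40 transcripts, 30 of 43 epidermal members of mock (69.8%) and 40 of 397 of SspA+HDM (10.1%) held it. Counted along the strip, epidermal members with Ctla2a numbered 2.73 per mm in mock and 8.40 in SspA+HDM, and those without it 0.503 and 17.8. Under this rule, members without detected Ctla2a made up most of the difference in number between the sections, with 7 of them in mock and 273 in SspA+HDM. Epidermal outlines with Cd3d but no Rac2, 105 in mock and 249 in SspA+HDM, lie outside this count. A lower level also leaves more members without a detected transcript, and its part was not tested.

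Outside the rule, epidermal outlines of mock with Cd3d but no Rac2 also held Ctla2a in 63 of 105 cases (60%), against 29.1% of those with Rac2 alone and 4.12% of those with neither. Muscle outlines of mock, at a median of 317 transcripts, held it in 5.77% of cases. In the dermis Ctla2a was present in 6 of 23 members of mock and 78 of 211 of SspA+HDM. There the level of SspA+HDM members was 1.17 times (0.955 to 1.43) that of neighbours, an interval that includes no difference. In mock dermal members it was 3.46 times (1.72 to 6.80), with 16 transcripts.

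Of the chromatin and transcription factors measured, Satb1 and Runx2 were frequent in SspA+HDM members. Satb1 encodes a chromatin organiser required in thymocytes and mature T cells. It was present in 192 of 402 epidermal (47.8%) and 95 of 211 dermal members (45.0%) of SspA+HDM, against 13% and 12.2% of neighbours. In mock it was present in 12 of 45 epidermal members (26.7%, against 27.1% of neighbours) and in 0 of 23 dermal ones, where the floor of 3 counts allows a share of up to 13% and the exact upper limit is 14.8%. In epidermal members the level was 2.0 times (1.23 to 3.48) that of mock, whereas in other epidermal outlines it was 0.200 times. Skeletal muscle outlines of mock, at a median of 317 transcripts, held Satb1 in 203 of 503 cases (40.4%). The gene was therefore not limited to T-cell outlines.

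Runx2, a Runt-family transcription factor, was present in 175 of 402 epidermal (43.5%) and 76 of 211 dermal members (36.0%) of SspA+HDM, and in 13 of 45 and 0 of 23 of mock. It was 9.83-fold and 3.38-fold above neighbours in the compartments of SspA+HDM, and 11.9-fold (4.30 to 37.9) in the mock epidermis. In epidermal members the ratio of SspA+HDM over mock was 1.65 (0.965 to 3.07), an interval that includes 1.

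Ms4a6b, a membrane protein of the MS4A family found in T cells and myeloid cells, was present in 1 of 45 epidermal members of mock and in 107 of 402 of SspA+HDM (26.6%). Strips of SspA+HDM had it in 21.9% and 30.4%. Epidermal members stood 13-fold (9.79 to 17.5) above neighbours, and the ratio of SspA+HDM over mock was 16.7 (2.96 to 663), resting on 1 mock transcript, against 2.10 in other epidermal outlines. In the dermis, where many outlines held it (15.1% of other dermal outlines of SspA+HDM), it was present in 3 of 23 and 70 of 211 members and stood 1.84-fold above neighbours.

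Within epidermal members of SspA+HDM, Ms4a6b was more frequent where Cd8a was present, in 44 of 94 (46.8%) against 63 of 308 without Cd8a (20.5%). In the dermis of SspA+HDM it was present in 5 of 18 members with Cd8a (27.8%) and 65 of 193 without (33.7%). In the epidermis it was also more frequent beside Ctla2a, in 41.1% against 19.8%. Ctla2a was present in 35.1% of members with Cd8a and 31.2% of those without, Ctla4 in 10.6% and 10.1%, and Satb1 in 47 of 94 and 145 of 308. Median depth was 145 transcripts with Cd8a and 131 without, and its part in these shares was not tested.

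T-cell outlines were set against the 5 nearest other outlines of the same compartment, for genes with at least 30 transcripts in members. A level 2-fold higher or more was found for 4 of 39 genes in the mock epidermis (10.3% of those compared), and 3 of 12 (25%) in the mock dermis. In SspA+HDM it was found for 14 of 101 (13.9%) in the epidermis and 10 of 105 (9.52%) in the dermis. The limit applied to members alone, so a gene high in them passed it more easily. Members of mock held fewer transcripts, and fewer genes were compared there. Among genes left out was Ctla4 in the mock dermis, 15.6-fold (6.38 to 43.4) above neighbours with 21 transcripts. Another was Runx2 in the mock epidermis, 11.9-fold above with 14. The genes of the rule were left out of these counts. Members were chosen on counts from the same outlines, so the ratios describe them and are no test.

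Laptm5 and S100a4 were at least 2-fold above neighbours in all 4 groups. Laptm5, a lysosomal membrane protein of haematopoietic cells, was present in 73.3% and 82.8% of epidermal and 73.9% and 89.6% of dermal members of mock and SspA+HDM. Its ratio over neighbours was 7.31 and 6.95 in the epidermis and 2.73 and 2.72 in the dermis. S100a4, a calcium-binding protein of motile cells, stood 3.56-fold and 4.08-fold above neighbours in the epidermis and 2.03-fold and 2.06-fold in the dermis.

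Ncf4, a subunit of the phagocyte NADPH oxidase, stood 5.84-fold and 4.38-fold above neighbours in the epidermis of mock and SspA+HDM, with 18 of 45 and 173 of 402 members holding it. Epsti1, an interferon-inducible gene, was 4.08-fold above neighbours in the epidermis of SspA+HDM and 2.38-fold in the dermis. In mock, with 9 and 14 transcripts in members, it was 3.28-fold (1.25 to 8.15) and 3.83-fold (1.78 to 8.05) above. Emb, which encodes embigin, a partner of lactate transporters, was 3.37-fold and 2.80-fold above. In epidermal members Emb was 1.78 times (1.28 to 2.53) the mock level, while in other epidermal outlines it was 0.551 times.

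In the dermis of SspA+HDM, Pglyrp1, a peptidoglycan-binding protein of granulocytes and activated T cells, was 3.28-fold above neighbours with 33 transcripts. Aqp3, a water and glycerol channel of keratinocytes, was 2.35-fold above, and keratinocyte-list genes made up 9.90% of the transcripts of these members against 7.48% in their neighbours. Psmb8, an immunoproteasome subunit and the single cytotoxic-list gene of 12 on the panel, was 2.08-fold (1.79 to 2.40) above neighbours in the epidermis and 1.80-fold (1.5 to 2.15) in the dermis of SspA+HDM. In mock its ratios were 1.61 and 0.935 with intervals that include 1.

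**Figure D4:**
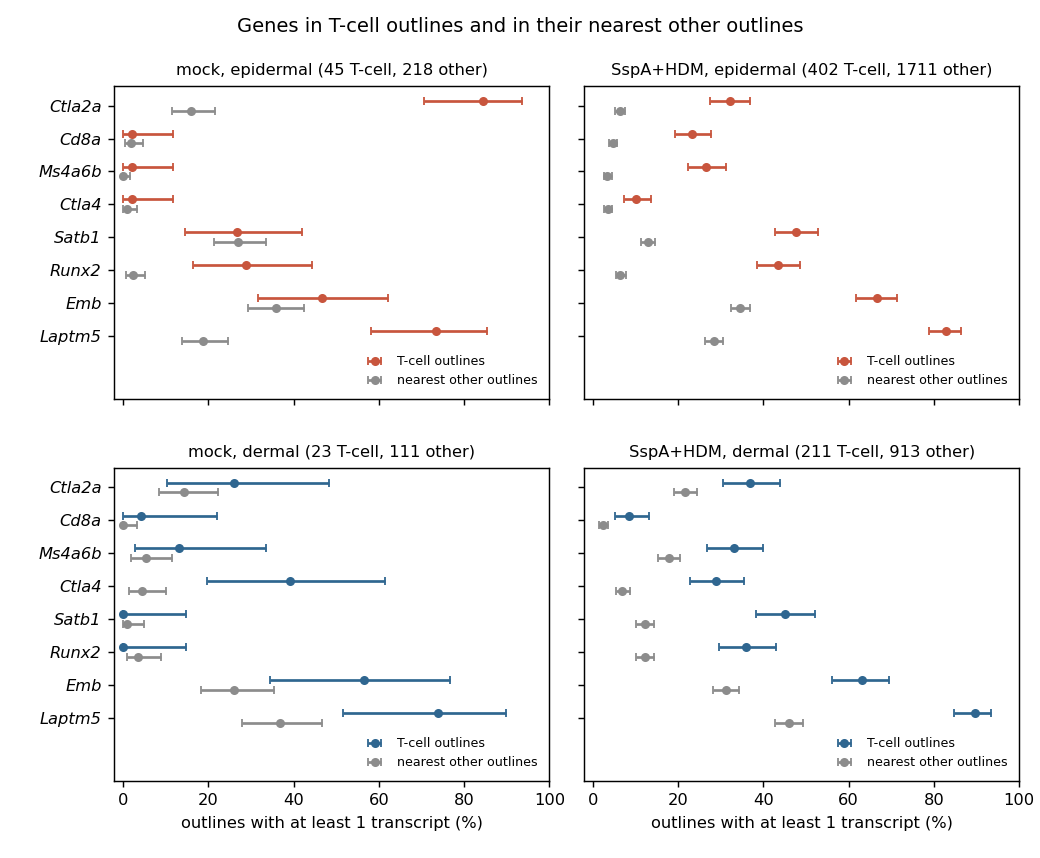
Share of outlines with at least 1 transcript of 8 genes (x axis, %) in T-cell outlines (coloured) and in their nearest other outlines (grey), by section and compartment. Points are shares and bars exact 95% intervals for counting error; Ctla2a leads in the mock epidermis (84.4%), Cd8a, Ms4a6b and Satb1 stand above neighbours in the SspA+HDM epidermis, and Runx2 does so in the epidermis of both sections.

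Markers of other cell types were set beside their level in the neighbours. The 11 macrophage and monocyte genes, of which the rule limits 4, made up 0.321% and 0.198% of the transcripts of epidermal members in mock and SspA+HDM, against 0.384% and 0.160% in neighbours. In dermal members they made up 4.03% and 1.45%, against 5.87% and 4.03%. Mpeg1, the pore-forming protein of phagocytes, took 39 of the 69 such transcripts in dermal members of mock, 19 of them in 1 outline. Its level was 2.53-fold (1.68 to 3.76) that of neighbours in the mock dermis, where Laptm5, Mpeg1 and S100a4 were the 3 genes counted as 2-fold higher or more. It was 2.27-fold (1.45 to 3.49) in the SspA+HDM epidermis and 0.699 times (0.521 to 0.924) in the SspA+HDM dermis. The mast-cell gene Cpa3 had 0, 1, 10 and 29 transcripts in epidermal and dermal members of mock and then of SspA+HDM, and neighbours had 3, 20, 40 and 293. The granulocyte receptor gene Csf3r was present in 0 members of mock, in 4 of 402 epidermal and in 13 of 211 dermal members of SspA+HDM. Among neighbours it was present in 0% and 0.994% of epidermal and 6.31% and 11.8% of dermal outlines of mock and SspA+HDM.

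The 6 granulocyte genes made up 0.305% and 0.439% of transcripts in epidermal members and 1.40% and 0.575% in dermal ones, with Il1r2, the interleukin-1 decoy receptor, the highest. In neighbours they made up 0.456% and 0.318% in the epidermis and 1.11% and 0.833% in the dermis. Il1r2 was 1.98-fold (1.68 to 2.33) above neighbours in the SspA+HDM epidermis. Cxcr2, a chemokine receptor gene of the same list, went the other way there, at 0.552 times (0.399 to 0.746) the level of neighbours. In the SspA+HDM dermis Cxcr2 was at 0.260 times (0.0823 to 0.630) and Il1r2 at 1.23 times (0.926 to 1.62). Keratinocyte-list genes made up 27.4% and 33.4% of the transcripts of epidermal members, against 31.8% and 39.2% in their neighbours. Fibroblast genes, led by Lum, made up 15% and 11.3% in dermal members against 18.4% and 14.4%. The 3 genes of cell division on the panel made up 1.62% and 2.19% in epidermal members, against 1.38% and 1.56%. Epcam, the 1 dendritic-cell-list gene of 12 on the panel and also an epithelial gene, was at 9157 and 9486 CPM in epidermal members, against 9401 and 10127 CPM in neighbours. The part of RNA from adjoining cells in these values was not tested.

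Between treatments, 26 of 101 genes were at least 2-fold higher in the epidermal T-cell outlines of SspA+HDM (25.7%) and 18 at least 2-fold lower (17.8%). Genes were compared where members of mock or of SspA+HDM held at least 30 transcripts. SspA+HDM members held 63776 transcripts and mock members 6225, so genes high in SspA+HDM passed this limit more easily. The balance of higher and lower genes therefore depends in part on the limit. In the other epidermal outlines the same 101 genes gave 23 higher (22.8%) and 14 lower (13.9%). Of the 26 higher genes, 16 were also 2-fold higher in other epidermal outlines, and of the 18 lower ones 9 were also lower. The median log2 ratio was 0.04 in members and -0.13 in other outlines. The ratio is over the panel total, so a gene can move with the rest of the outline's content.

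The highest ratios in epidermal members outside the T-cell genes were of genes that were also far higher in other epidermal outlines. Cstdc4 and Stfa2l1, stefin-type inhibitors of cysteine proteases, were 55.9-fold (19.1 to 271) and 29.97-fold (5.34 to 1187) higher, against 77.9-fold and 184-fold in other epidermal outlines. 2610528A11Rik, the gene of a GPR15 ligand, was 25.2-fold higher against 57.5-fold, and Slc34a2, a phosphate transporter, 9.61-fold against 7.08-fold. Mock members held 3, 1, 1 and 2 transcripts of these, so the upper bounds are wide.

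The lowest ratios after Ctla2a were for Lor (0.137), the cornified envelope protein loricrin, Gm94 (0.171), Krt13 (0.276), a keratin, Scin (0.291), an actin-severing protein, and Serpina3n (0.312), a secreted protease inhibitor. In other epidermal outlines they were 0.287, 0.275, 0.326, 0.426 and 0.631.

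Against this shared background, 10 of the 101 genes were at least 2-fold higher in epidermal members and not in other epidermal outlines. Another 9 were at least 2-fold lower in members and not in other outlines. Ctla4 was 7.61-fold (1.33 to 305) higher in members and 0.506 times in others, and Satb1 went opposite ways as given above. Ctss, the lysosomal protease cathepsin S, was 2.02-fold (1.21 to 3.66) higher in members, from 2410 to 4876 CPM, and 0.891 times in others. Others among the 10 higher genes were Bmp2, Ccdc80, Vsnl1, Plbd1, Tmem147 and Cenpf, at 2.05-fold to 5.66-fold, and Bmp2 and Ccdc80 had 1 mock transcript each. The intervals of Bmp2, Ccdc80, Vsnl1 and Cenpf included 1. In other epidermal outlines Bmp2 was at 0.636 times, and the rest of these genes were 1.41-fold to 1.79-fold higher. The difference between members and others was not tested.

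**Figure D5:**
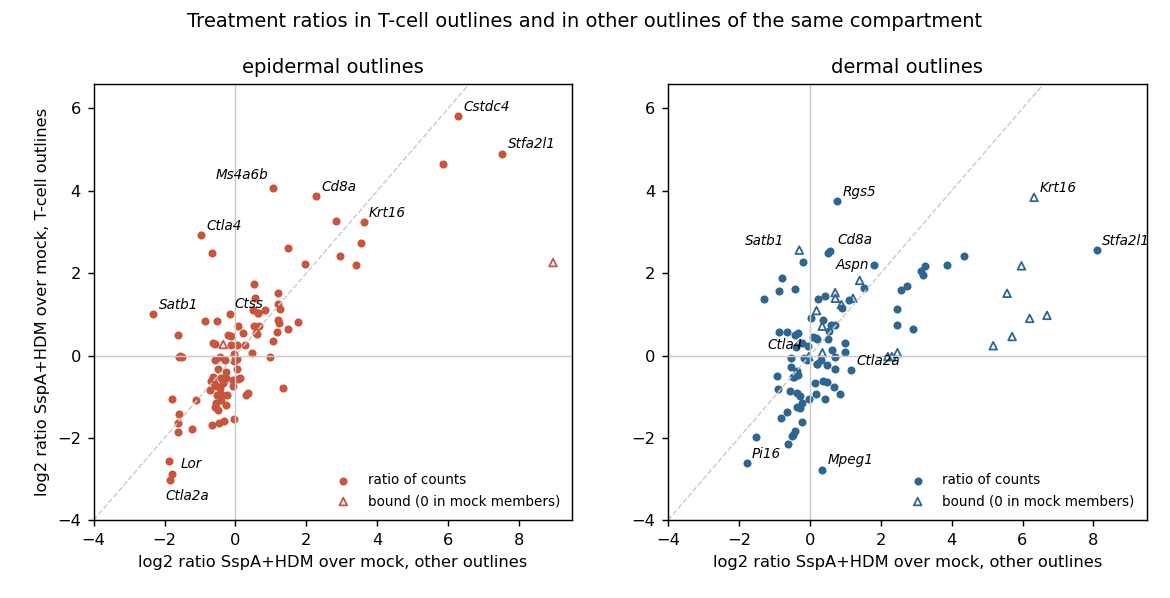
Log2 ratio of SspA+HDM over mock for each gene with at least 30 transcripts in a group, in other outlines of the compartment (x axis) and in T-cell outlines (y axis), for epidermal (left) and dermal (right) outlines; triangles are bounds for genes with 0 transcripts in mock members and the dashed line marks equal ratios. Cd8a, Ms4a6b, Ctla4 and Satb1 lie above the line in the epidermis, and Ctla2a and Lor lie below it.

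In the dermis, 33 of 105 genes were at least 2-fold higher in members of SspA+HDM (31.4%) and 15 at least 2-fold lower (14.3%), with 27 (25.7%) and 3 (2.86%) in other dermal outlines. These counts rest on 23 mock outlines. Without mock strip 1, which held 8 of them, 20 genes were higher, and without mock strip 2, which held 15, 19 were higher and 25 lower. With transcripts over the nucleus alone, 11 were higher and 7 lower.

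Krt16, a keratin of activated epidermis, had 0 transcripts in mock dermal members and 437 in SspA+HDM ones. It was at least 14.3-fold higher against a floor of 3 transcripts, with a lower limit of 11.6 from counting error, and was 80.2-fold higher in other dermal outlines. Stfa2l1 was 5.90-fold (1.02 to 237) against 272-fold. Satb1 was at least 5.90-fold higher against the same floor, with a lower limit of 4.75 from counting error, against 0.814 times in other dermal outlines. Rgs5, a pericyte gene, was 13.5-fold (2.38 to 536) higher with 1 mock transcript, and Aspn, a small matrix proteoglycan, 5.60-fold (2.16 to 20.7) with 4. In other dermal outlines Rgs5 was 1.71-fold and Aspn 1.44-fold higher.

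Lowest in dermal members were Mpeg1 (0.146), Pi16 (0.164), a gene of adventitial fibroblasts, Myh11 (0.225) and Tagln (0.260), contractile proteins of smooth muscle, Pcolce2 (0.253), an enhancer of collagen processing, and complement C3 (0.257). Of the 39 mock transcripts of Mpeg1, 19 came from 1 outline. In other dermal outlines these ratios were 1.28, 0.291, 0.657, 0.722, 0.350 and 0.701. The 3 mural genes of smooth muscle and pericytes made up 2.05% of the transcripts of mock dermal members and 1.23% of those of SspA+HDM, against 1.80% and 2.39% in their neighbours. Its members went different ways: Rgs5 had 1 and 137 transcripts, Myh11 28 and 64 and Cnn1 6 and 13, with ratios of 13.5, 0.225 and 0.213.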

How the data were processed

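The authors deposited, for each section, a table of decoded transcripts with gene, position, outline, nuclear overlap and a score of decoding quality, named qv per the file headers, beside a table of outline borders. The score ran up to 40, and 79.4% (mock) and 78.1% (SspA+HDM) of gene transcripts reached 20. The sources used here name no decoder or segmentation method, and positions were taken as µm. The sections had 2461475 and 8124205 gene transcripts of score 20 or more, 94.5% and 97.6% of them inside outlines.

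Transcripts were counted per outline with Python 3.11.15, numpy 2.4.6, pandas 2.3.3 and SciPy 1.17.1, and outlines with at least 20 were kept. CPM is over the panel. Shares have Clopper-Pearson and ratios exact conditional binomial 95% intervals. The ratio intervals were tried on simulated counts that were independent of each other, as the method assumes. That trial does not cover transcripts clumped in single outlines, for which the ratio intervals can be too narrow. A group at 0 was set to 3 transcripts. Neighbours are the 5 nearest other outlines of the compartment. No doublet caller was run. Strips are groups of outlines linked within 100 µm that hold at least 5% of a section. The outer edge is the 2nd percentile of the position of epidermal outlines in 100-µm windows, and dermis starts at the 10th percentile of other outlines. Muscle outlines have at least 20% Ttn.

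Genes named are all measured ones of the lymphocyte, cytotoxic and dendritic-cell lists, the 10 highest over neighbours in SspA+HDM, the 6 highest and 6 lowest between treatments, and the leading genes of other lists. Further genes are named as small counts or as exceptions, after their values were seen. Members, lists and alternatives were chosen with earlier results of these data known. Alternatives covered the score, depth, count, compartment and neighbour limits, nuclear transcripts, thinning and each strip left out. One result is not reported here.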

Additional observations from a re-analysis of the deposited data

Results flagged for a closer look

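Crct1, Lor and Ly6g6c, genes of keratinocytes, went opposite ways in T-cell outlines of the epidermis and the dermis. In SspA+HDM over mock, Crct1 was 0.471 times in epidermal and 4.52 times in dermal T-cell outlines, Lor 0.137 and 4.13 times, and Ly6g6c 0.471 and 3.02 times. Other outlines of the same compartments went the same ways: Crct1 0.466 and 9.48, Lor 0.287 and 8.73, Ly6g6c 0.756 and 5.92. Each gene had 3 transcripts in dermal T-cell outlines of mock. The difference between compartments was not tested.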

How the results depend on the processing

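Of 197 recomputed values over 21 results, 167 stayed within the interval or within 1.5 times the count of the chosen setting. With at least 2 Cd3d transcripts, the dermal share ratio was 5.37, and dermal Cd8a had 0 mock transcripts, a bound of 0.835 and a lower limit of 0.638. In that setting genes higher in SspA+HDM were 12 (epidermis) and 16 (dermis), 7 were lower in the dermis, and 0 stood above neighbours in the mock dermis. Cd8a in epidermal over dermal members was 2.22 with the split at 5% and 0.824 at 12%. Without a quality filter, 5 genes stood above neighbours in the mock dermis, Ctla2a was 0.171 and epidermal over dermal Ctla4 0.148. Nuclear transcripts gave 11 higher and 7 lower genes in the dermis. Genes with at least 100 transcripts gave 10 lower in the epidermis, and 17 higher and 4 lower in the dermis. With 1 strip left out, dermal genes ranged from 19 without mock strip 2 and 20 without mock strip 1 upward for higher and from 9 (without SspA+HDM strip 2) to 25 (without mock strip 2) for lower. Lower epidermal genes numbered 11 without SspA+HDM strip 2, and 0 genes stood above neighbours in the mock dermis without mock strip 2. All other outlines as neighbours gave 7 and 10 genes in mock epidermis and dermis and 31 in the SspA+HDM dermis. Per area the density ratio was 4.65. Distances to the outer layer were 22.9 and 64.2 µm. With Cd3d alone, added after the data had been seen, the share ratio was 1.68 overall and 1.43 in the epidermis. Causes beyond fewer outlines, genes or transcripts were not tested. Mock Cd8a, with 2 and 1 transcripts, allows no comparison of compartments. No paired analysis was possible because each treatment has 1 sample.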
